A study of Homo sapiens with 18 samples.

Results

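The SR proteins and the hnRNP proteins are the main sequence-specific RNA-binding regulators of pre-mRNA splicing, and their genes are described here in young, replicatively senescent (old) and inflachromene-treated (ICM) human fibroblasts. Members were all gene symbols made of SRSF and a number, or beginning with HNRNP, that held at least 100 reads in the 5′ UTR, CDS and 3′ UTR summed over the 9 mRNA-seq libraries. There were 37 of them, 12 SRSF and 25 HNRNP, among 12754 symbols with that many reads and 38716 symbols in all. Another 5 symbols matched the name rule but fell below the minimum (HNRNPUL2-BSCL2, HNRNPA1P10, HNRNPA1P33, HNRNPA3P1 and HNRNPKP3). The rule used the sum over all conditions and no difference between them.

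IMR90 is a line of human fetal lung fibroblasts, and per the study's methods the cells came from a single isolate. The young group was low-passage, dividing cells. The old group had been passaged to replicative exhaustion. The ICM group was low-passage cells kept for days in inflachromene, a compound known to bind HMGB1 and HMGB2, which are abundant proteins of chromatin. No allele or other agent distinguished the groups. Each group had 3 lysates, and each lysate gave a poly(A) mRNA-seq library and a library of ribosome-protected fragments (Ribo-seq), 18 libraries in all. Per the study's methods the 3 replicates of a group were grown independently, so p-values measure the spread between such cultures. The study's results say that data on old cells were made earlier than data on ICM cells, while its methods describe the groups together. The sample titles give no date, so the time of the experiment and the group cannot be told apart.

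SR proteins carry RNA recognition motifs and a domain rich in arginine and serine. They bind exons, recruit the spliceosome to nearby splice sites and are switched by phosphorylation of that domain. The hnRNP proteins coat nascent transcripts, and many of them repress exons or oppose SR proteins. Both families hold close paralogs, and many members limit their own amount through exons with early stop codons, whose inclusion sends the transcript to nonsense-mediated decay (NMD).

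The Ribo-seq libraries differed far more in depth than the mRNA-seq libraries. They held 46239 to 1718521 CDS reads, against 7902427 to 14144455 coding reads in mRNA-seq. Young replicate 1 and old replicate 2 had a low share of Ribo-seq reads in the CDS, at 34.4% and 15.0%, and ICM replicate 3 was the shallowest. ICM replicate 3 also stood apart in its Ribo-seq proliferation markers, which summed to 936 CPM (counts scaled by the total of the library, of coding reads in mRNA-seq and of CDS reads in Ribo-seq), against 232 and 327 in the other ICM libraries. In mRNA-seq, 12 proliferation markers summed to 1007 to 1054 CPM in young, 344 to 382 in old and 92.6 to 98.7 in ICM libraries. The summed level of 8 fibroblast markers was 30610 to 34890 CPM in young, 29230 to 34270 in old and 12310 to 12570 in ICM libraries. The sum of 12 markers of other cell types was 87.4 to 108.6 CPM in every group, with CDH5 and CD3E, defining markers of endothelial and T cells, at 0 throughout. Its members moved in opposite directions. In ICM against young CD68, a macrophage and lysosome marker, rose (20.6 to 58.6 CPM, log2 change 1.51) and VWF, an endothelial marker, rose (0.34 to 3.38 CPM, 3.30), while the muscle markers DES (-1.37) and MYH11 (-1.70) fell. In old against young CD68 rose (0.69) and MYH11 fell (-0.79). What part these differences had in the results below was not tested. In bulk samples fewer cells of a type and less RNA per cell cannot be told apart, and CPM values are relative to the coding mRNA of the same library.

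The mRNA of the family as a whole was lower in both old and ICM cells than in young cells. The 37 genes took 0.659% to 0.714% of coding mRNA reads in young libraries, 0.354% to 0.368% in old and 0.367% to 0.391% in ICM libraries. On the CPM scale they summed to 6709 ± 285 in young, 3799 ± 57.2 in old and 3664 ± 69.9 in ICM cells (mean ± SD, n = 3). CPM include TMM scaling and the read shares do not, and the order of old and ICM cells differed between the measures. The 25 HNRNP genes carried most of this. Their sum went from 5329 ± 235 CPM in young to 2849 ± 37.9 in old and 2753 ± 42.4 in ICM cells. The 12 SRSF genes summed to 1381 ± 50.3, 950.6 ± 26.4 and 911.6 ± 28.6 CPM. Footprints in the CDS followed, with a sum over the 37 genes of 10650 ± 383 CPM in young, 5947 ± 415 in old and 5782 ± 671 in ICM cells. Young libraries did not overlap with old or ICM libraries in these sums.

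**Figure D1:**
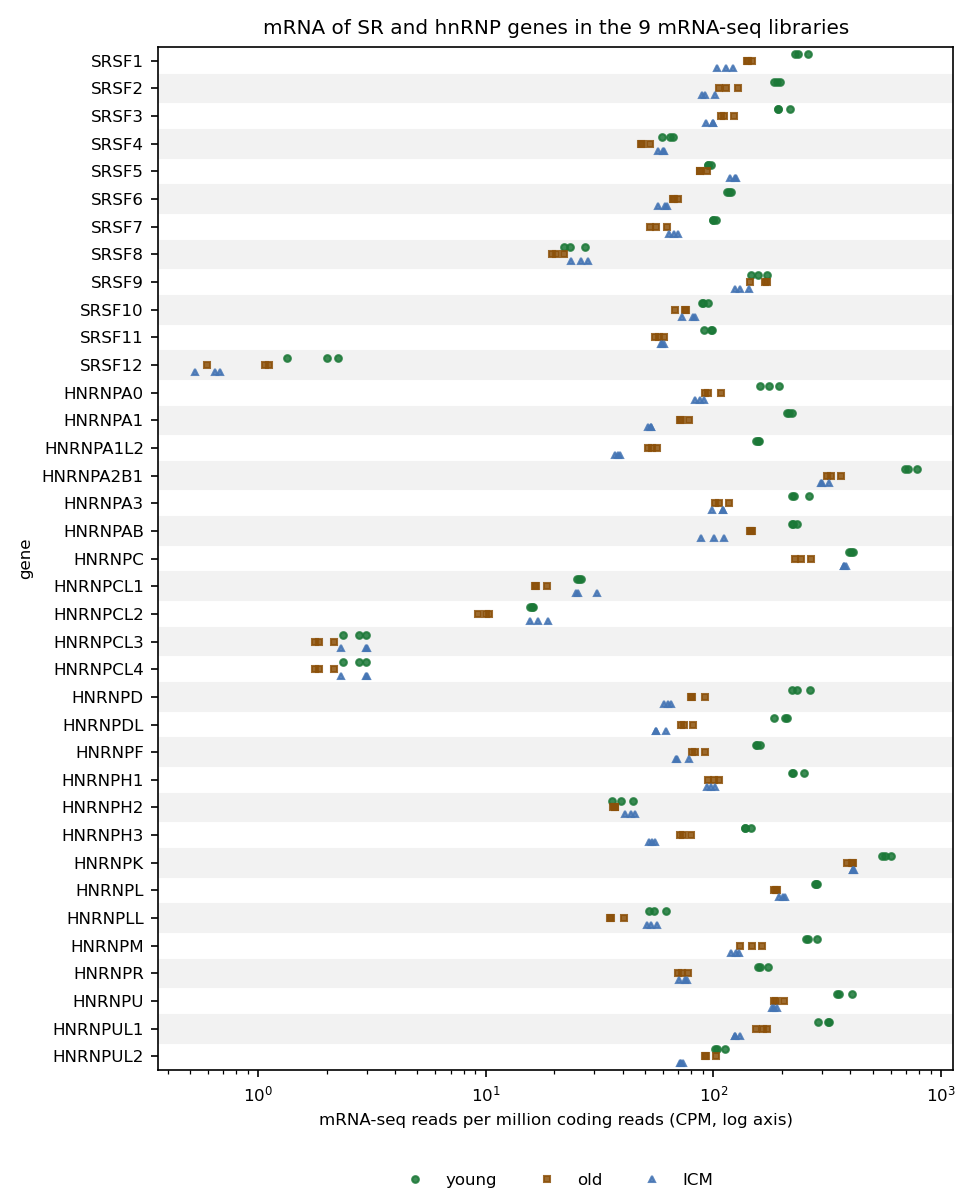
mRNA-seq level of each of the 37 genes in each library (CPM, log axis), with green circles for the 3 young, brown squares for the 3 old and blue triangles for the 3 ICM libraries. Young circles lie to the right of the other groups for most genes, while for SRSF5 the ICM triangles (118 to 126 CPM) lie to the right of all others, and for HNRNPC they lie at 374 to 384 CPM, close to the young libraries.

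Per length of coding sequence the members covered a wide range of levels. In young cells HNRNPA2B1, which binds exons and RNAs bound for export, was the most abundant, at 789 ± 50.1 RPKM (CPM of the CDS divided by its length in kilobases, mean ± SD, n = 3). HNRNPK, a poly(C)-binding protein, followed at 458 ± 14.5 RPKM, then HNRNPC at 378 ± 18.6, SRSF9 at 307 ± 7.09 and SRSF3 at 300.5 ± 21.9. The SDs of SRSF9 and SRSF3 overlapped. SRSF12 was the lowest of the members with such a value, at 1.93 ± 0.495 RPKM. The order at the top changed in the other states. In old cells HNRNPA2B1 stood at 356 ± 27.4 RPKM, HNRNPK at 313 ± 17 and SRSF9 at 300.1 ± 23.9, with SRSF9 and HNRNPK within each other's spread. In ICM cells HNRNPC was at 372 ± 9.35 RPKM, HNRNPA2B1 at 349 ± 11.9 and HNRNPK at 338 ± 3.32, and the SDs of HNRNPA2B1 and HNRNPK overlapped. These levels rest on the chosen coding sequence of each gene in GENCODE (v44, lifted to GRCh37), which matched 35 of the 37 symbols (not HNRNPCL3 and HNRNPCL4).

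Several members have near-identical copies, and the reads of such genes cannot be assigned to 1 locus with certainty. HNRNPA1L2 and HNRNPCL1 to HNRNPCL4 are intronless copies of HNRNPA1 and HNRNPC. Every stretch of 28 bases in the coding sequence of HNRNPA1L2 also occurred in a transcript of another gene. An annotated gene other than HNRNPA1 held all of them. Of the stretches of HNRNPA1 90.4% occurred in some other gene, as did 84.2% of those of HNRNPC and 93.9% of those of HNRNPA3. For HNRNPA2B1, HNRNPUL1, HNRNPLL, HNRNPA0, SRSF4, SRSF5 and SRSF7 the share was 0%. The first 30 coding bases of each pair are shown because a ribosome footprint is about that long, with the bases that differ in capitals:

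HNRNPA1: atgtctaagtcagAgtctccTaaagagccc

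HNRNPA1L2: atgtctaagtcagCgtctccAaaagagccc

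HNRNPC: atggccagcaacgttaccaacaagaCAgat

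HNRNPCL1: atggccagcaacgttaccaacaagaTGgat

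These windows hold 2 differences in each pair. Of 32 consecutive windows of 30 coding bases, HNRNPA1 and HNRNPA1L2 were identical in 15. Of 29 such windows, HNRNPC and HNRNPCL1 were identical in 4. HNRNPCL1 and HNRNPCL2 shared 69.4% and 60.4% of their stretches of 28 bases with other genes, most often with each other. For stretches of 50 bases the shares were 42.4% and 38.2%. The sequences of HNRNPCL3 and HNRNPCL4 were not compared. HNRNPCL3 and HNRNPCL4 had the same values in every library and are 1 measurement under 2 names. HNRNPA1L2 and the HNRNPCL genes are therefore given below with their parents and not as separate evidence. SRSF1 shared 96.7% of its stretches with another annotated gene, and HNRNPUL2 shared 96.5% with HNRNPUL2-BSCL2, which spans it and the next gene.

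The first question was how the inhibitor changes the family in low-passage cells, so ICM was compared with young. In mRNA-seq 27 of the 37 members fell and 1 rose at an adjusted p under 0.05 (edgeR quasi-likelihood test), while 9 were not called. Over all 13173 genes tested, 36.1% were called lower and 34.9% higher. The members' median log2 change was -1.0, against -0.01 for all genes. In 28 members every ICM library lay below every young library, as in 37.6% of all genes. Without the 5 near-identical copies, 26 of 32 members fell and the median was -1.02.

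The same question was put to replicative senescence. In old against young cells 33 of 37 members fell in mRNA-seq, none rose and 4 were not called, against 33.7% called lower and 32.4% called higher among all genes. The edgeR test also gave 0 rises at an unadjusted p under 0.05, and DESeq2 gave 0. The median change was -0.75, against -0.02 over all genes. Without the near-identical copies 28 of 32 fell. Of the members, 25 fell in both comparisons. These comparisons share the young libraries, so the values are set side by side below and their likeness is not used as a result.

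**Figure D2:**
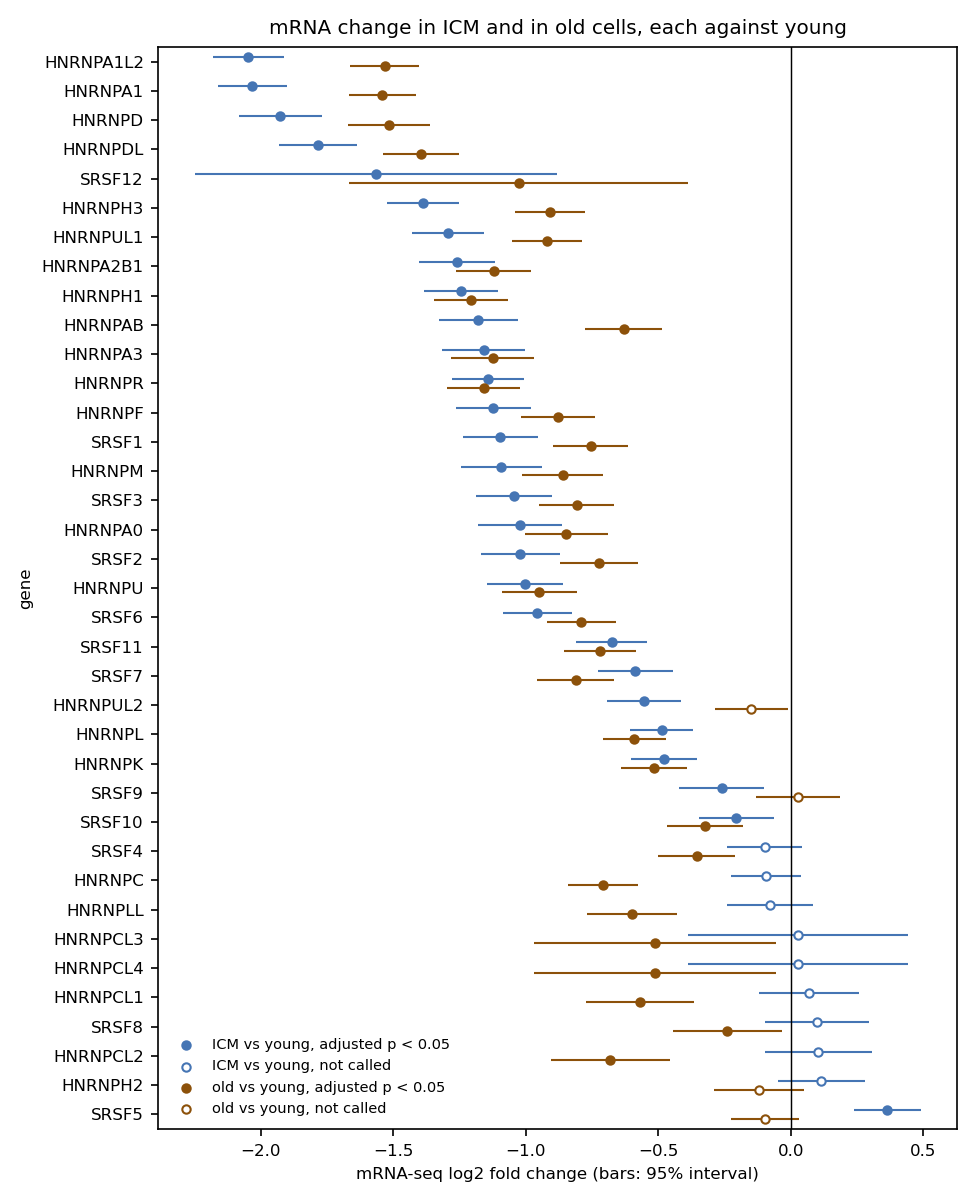
mRNA-seq log2 fold change of each member in ICM (blue) and in old cells (brown), each against young, with bars for the 95% interval. Filled points passed an adjusted p of 0.05. HNRNPA1, HNRNPA1L2, HNRNPD and HNRNPDL lie at the left edge, and SRSF5 is the filled blue point to the right of 0, at 0.36.

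HNRNPA1, which represses exons and competes with SRSF1 for splice-site choice, had, with its copy HNRNPA1L2, the largest fall of the family. Its mRNA stood at 215, 210.5 and 221 CPM in the young libraries, 72.4, 78.1 and 71.4 in the old and 53.3, 53.2 and 51.6 in the ICM libraries. The 3 groups did not overlap. The log2 change was -2.03 (SE 0.06, adjusted p = 8.15e-18) in ICM and -1.54 (SE 0.06, adjusted p = 2.09e-15) in old cells, about 4.09 and 2.91 times lower. Its copy HNRNPA1L2 moved with it, by -2.05 (SE 0.07, adjusted p = 1.2e-17) and -1.53 (SE 0.06, adjusted p = 3.49e-15). The pseudogene HNRNPA1P10, counted in another column, stood at 139.5 ± 3.21 CPM of coding reads in young, 44.5 ± 2.42 in old and 33.2 ± 0.393 in ICM libraries. It holds 70.7% of the stretches of 28 coding bases of HNRNPA1. Its reads therefore could not be assigned with certainty and are not separate evidence.

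The other A/B-type genes, whose products share a pair of RNA recognition motifs and a glycine-rich tail, fell less than HNRNPA1. HNRNPA2B1 went from 718, 692 and 786 CPM in young to 329, 365 and 316 in old and 297, 299 and 320.4 in ICM libraries. Its log2 changes were -1.26 (SE 0.07) in ICM and -1.12 (SE 0.07) in old cells. HNRNPA3 changed by -1.16 (SE 0.07) and -1.12 (SE 0.07), and HNRNPA0, a single-exon gene that binds AU-rich RNA, by -1.02 (SE 0.08) and -0.85 (SE 0.07). All of these passed the test in both comparisons. HNRNPAB fell more in ICM (-1.18, SE 0.07) than in old cells (-0.63, SE 0.07), and between ICM and old cells the difference was -0.55 (SE 0.07, adjusted p = 7.05e-07).

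HNRNPD, also called AUF1 and known for binding AU-rich elements in unstable mRNAs, and its neighbour and paralog HNRNPDL were the next largest falls. HNRNPD stood at 233, 221 and 265 CPM in young, 80.4, 79.5 and 91.9 in old and 63.3, 61 and 65.1 in ICM libraries, a log2 change of -1.93 (SE 0.08, adjusted p = 5.73e-16) in ICM and -1.51 (SE 0.07, adjusted p = 7.11e-14) in old cells. HNRNPDL stood at 209.5, 184 and 206 CPM in young, 72, 81.1 and 74.2 in old and 56.2, 61.9 and 56.2 in ICM libraries, a change of -1.78 (SE 0.07) and -1.40 (SE 0.07). For both genes the 3 groups were separate, with ICM lowest. Both genes lie on chromosome 4 and both have an annotated cassette exon that is found in NMD transcripts and absent from the main transcript. The last 20 intron bases and first 10 exon bases at the start of such exons are shown for these paralogs, for HNRNPL and HNRNPLL and for SRSF7, with the AG of the splice acceptor in capitals:

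HNRNPD: accttgtttgtacccgccAGcgggaacttc

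HNRNPDL: accttgtttgtacccgccAGcgggaacttc

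HNRNPL: tgtaaaaccatgtgatgcAGggtcgcagtg

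HNRNPLL: tgtgaaaccatgtaatacAGgttgttgttg

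SRSF7: acctggtcaaaacctttcAGgtttcttcgt

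The windows of HNRNPD and HNRNPDL were identical in all 30 bases, and those of HNRNPL and HNRNPLL in 21 of 30. On GRCh37 the exons lie on the minus strand at chr4:83276048-83276154 (HNRNPD, 107 bases), chr4:83346716-83346820 (HNRNPDL, 105 bases), chr19:39332253-39332322 (HNRNPL, 70 bases), chr2:38805062-38805144 (HNRNPLL, 83 bases) and chr2:38976040-38976488 (SRSF7, 449 bases). An exon of this kind was annotated in 15 members, 9 SRSF and 6 HNRNP, including the 456-base exon of SRSF3 at chr6:36567598-36568053. The count takes every internal exon of an NMD transcript that the main transcript lacks. Whether each of them brings the early stop codon was not tested. The deposited tables sum reads over regions and do not count these exons singly.

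The H/F genes bind runs of G and regulate exons and polyadenylation sites, and here the paralogs separated. HNRNPH1 changed by -1.24 (SE 0.07) on the log2 scale in ICM and -1.21 (SE 0.07) in old cells, from 223, 221 and 249.9 CPM in young to 102, 93.4 and 97.8 in ICM libraries. HNRNPF changed by -1.12 (SE 0.07) and -0.88 (SE 0.07), and HNRNPH3 by -1.39 (SE 0.07) and -0.91 (SE 0.06). HNRNPH2, the X-linked paralog of HNRNPH1, was called in neither comparison, at 35.9, 39.2 and 44.2 CPM in young, 36.9, 37.1 and 36.1 in old and 40.9, 43.5 and 45.4 in ICM libraries. Its log2 change was 0.11 in ICM (95% interval -0.05 to 0.28) and -0.12 in old cells (-0.29 to 0.05), so that a fall of the size seen in HNRNPH1 lay outside both intervals.

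HNRNPC, which binds runs of U and keeps cryptic exons out of mRNAs, differed between ICM and old cells. Its mRNA was 402, 394 and 412 CPM in young, 374, 374 and 384 in ICM and 243, 268 and 228 in old libraries. It fell in old cells, with a log2 change of -0.71 (SE 0.06, adjusted p = 2.19e-09), and was not called in ICM cells (-0.09, 95% interval -0.23 to 0.04). ICM exceeded old cells by 0.61 (SE 0.06, adjusted p = 2.12e-08) on the log2 scale. HNRNPCL1, HNRNPCL2, HNRNPCL3 and HNRNPCL4 are copies of HNRNPC whose reads could not all be assigned with certainty. They did the same, with ICM above old by 0.64, 0.79 and, for the identical pair, 0.54. HNRNPCL1 stood at 25.6, 25.3 and 26.1 CPM in young and 25.5, 30.7 and 24.8 in ICM libraries.

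HNRNPL and HNRNPLL, which bind CA-rich RNA and of which HNRNPLL is best known for splicing in lymphocytes, also parted. HNRNPL fell in both, with changes of -0.49 (SE 0.06) in ICM and -0.59 (SE 0.06) in old cells. HNRNPLL fell in old cells, with a change of -0.60 (SE 0.08), but was at 56.3, 51.1 and 53.2 CPM in ICM libraries, overlapping the young ones at 52.1, 54.8 and 62.1. Old libraries were at 35.3, 40.6 and 35.6 CPM. The difference between ICM and old cells was 0.52 (SE 0.08, adjusted p = 7.08e-06).

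The remaining hnRNP genes fell less evenly. HNRNPU, which binds chromatin-associated RNA, changed by -1.0 (SE 0.07) in ICM and -0.95 (SE 0.07) in old cells. HNRNPR changed by -1.14 (SE 0.07) and -1.16 (SE 0.07), HNRNPM by -1.09 (SE 0.07) and -0.86 (SE 0.07), and HNRNPK by -0.48 (SE 0.06) and -0.52 (SE 0.06). HNRNPUL1, related to HNRNPU, fell from 318, 322 and 289 CPM in young to 124, 131 and 124 in ICM libraries, a change of -1.29 (SE 0.07), and changed by -0.92 (SE 0.06) in old cells. HNRNPUL2 fell in ICM (-0.55, SE 0.07) and was not called in old cells (-0.15, adjusted p = 0.0511), and the difference of ICM from old was -0.41 (SE 0.07, adjusted p = 1.57e-05).

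Among SR genes the canonical members SRSF1, SRSF2 and SRSF3 fell together. SRSF1, an activator of exon inclusion and known oncoprotein, went from 236, 228 and 259.7 CPM in young to 142, 148 and 139.8 in old and 121, 104 and 113 in ICM libraries, a change of -1.10 (SE 0.07) in ICM and -0.75 (SE 0.07) in old cells. SRSF2 changed by -1.02 (SE 0.07) and -0.72 (SE 0.07). SRSF3, the smallest SR protein, changed by -1.04 (SE 0.07) and -0.81 (SE 0.07). SRSF7, its paralog with a zinc knuckle that also acts in mRNA export, fell less in ICM (-0.59, SE 0.07) than in old cells (-0.81, SE 0.07), and the difference between ICM and old cells was 0.23 (SE 0.07, adjusted p = 0.00831). SRSF11 changed by -0.68 (SE 0.06) and -0.72 (SE 0.07), and SRSF10, which represses splicing when dephosphorylated, by -0.21 (SE 0.07) and -0.32 (SE 0.07).

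SRSF4, SRSF5 and SRSF6 are paralogs, and they went separate ways. SRSF6 fell in both states, from 119, 115 and 117 CPM in young to 66.2, 69.6 and 66.9 in old and 57.3, 61.4 and 62.4 in ICM libraries (-0.96, SE 0.06 in ICM). SRSF5 was the one member that rose. It stood at 97.4, 95.1 and 94.4 CPM in young, 87.4, 93.4 and 87 in old and 118, 125 and 126 in ICM libraries, and every ICM library lay above all others. The change was 0.36 (SE 0.06, adjusted p = 1.5e-05) in ICM against young and 0.46 (SE 0.06, adjusted p = 7.91e-07) in ICM against old, while old against young was not called (-0.10, 95% interval -0.23 to 0.03). SRSF4 was not called in ICM (-0.10, interval -0.24 to 0.04) and fell in old cells, with a change of -0.35 (SE 0.07).

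SRSF9, the close relative of SRSF1, was at 146, 157 and 172 CPM in young, 168, 173 and 144 in old and 130.3, 124 and 143 in ICM libraries. It fell slightly in ICM (-0.26, SE 0.08, adjusted p = 0.00481) and was not called in old cells (0.03, interval -0.13 to 0.19). SRSF8, a retrocopy related to SRSF2, was not called in ICM (0.10) and fell in old cells (-0.24, SE 0.10, adjusted p = 0.0372). SRSF12 was near the limit of detection, at 2.23, 2 and 1.33 CPM in young and 0.526, 0.648 and 0.678 in ICM libraries, and changed by -1.56 (SE 0.33, adjusted p = 0.000222) in ICM and -1.02 (SE 0.31, adjusted p = 0.00575) in old cells.

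Compared directly in mRNA-seq, 11 members were higher in ICM than in old cells and 15 lower, against 30.7% and 32.6% of all genes, and the median was -0.05. Without the near-identical copies 7 of 32 were higher and 14 lower, with a median of -0.15. The 26 of 37 called in either direction are near the 63.3% of all genes. DESeq2 called 9 higher and 14 lower. With the added requirement of a log2 change over 0.6 that the study set for mRNA, 3 were left (HNRNPC, HNRNPCL1 and HNRNPCL2, all higher in ICM). Besides these, the identical pair HNRNPCL3 and HNRNPCL4, HNRNPLL, SRSF5, SRSF8, SRSF4, SRSF7 and HNRNPH2 were higher in ICM, with log2 differences from 0.23 to 0.54. Lower in ICM were HNRNPAB, HNRNPA1 with its copy, HNRNPH3, HNRNPD, HNRNPUL2, HNRNPDL, HNRNPUL1, SRSF1, SRSF2, SRSF9, HNRNPF, SRSF3, HNRNPM and SRSF6. The largest of these differences were -0.55 for HNRNPAB, -0.52 (SE 0.07, adjusted p = 8.1e-07) for HNRNPA1L2 and -0.49 (SE 0.07, adjusted p = 8.25e-07) for HNRNPA1.

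Footprints were tested for 31 members. SRSF8, SRSF12 and the 4 HNRNPCL genes had too few. In ICM cells 19 of the 31 fell, against 12.9% of 4643 genes called lower, and the median was -0.91, against 0.00 over all genes. In old cells 22 of 31 fell, against 17% of all genes, with a median of -0.74. By edgeR 0 members rose in either comparison, also at an unadjusted p under 0.05, and DESeq2 called 0 higher. Over all genes 13.7% were called higher in ICM and 19.3% in old cells. Of the 21 HNRNP genes tested, 16 fell in each comparison, and of the 10 SRSF genes 3 fell in ICM and 6 in old cells. The ICM count was 12 without ICM replicate 1, the deepest ICM library, and 22 without ICM replicate 3. The old count was 12 without young replicate 2, 14 without young replicate 3, 12 without old replicate 1 and 12 in DESeq2. Without both libraries of low CDS share the counts were 22 and 21.

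**Figure D3:**
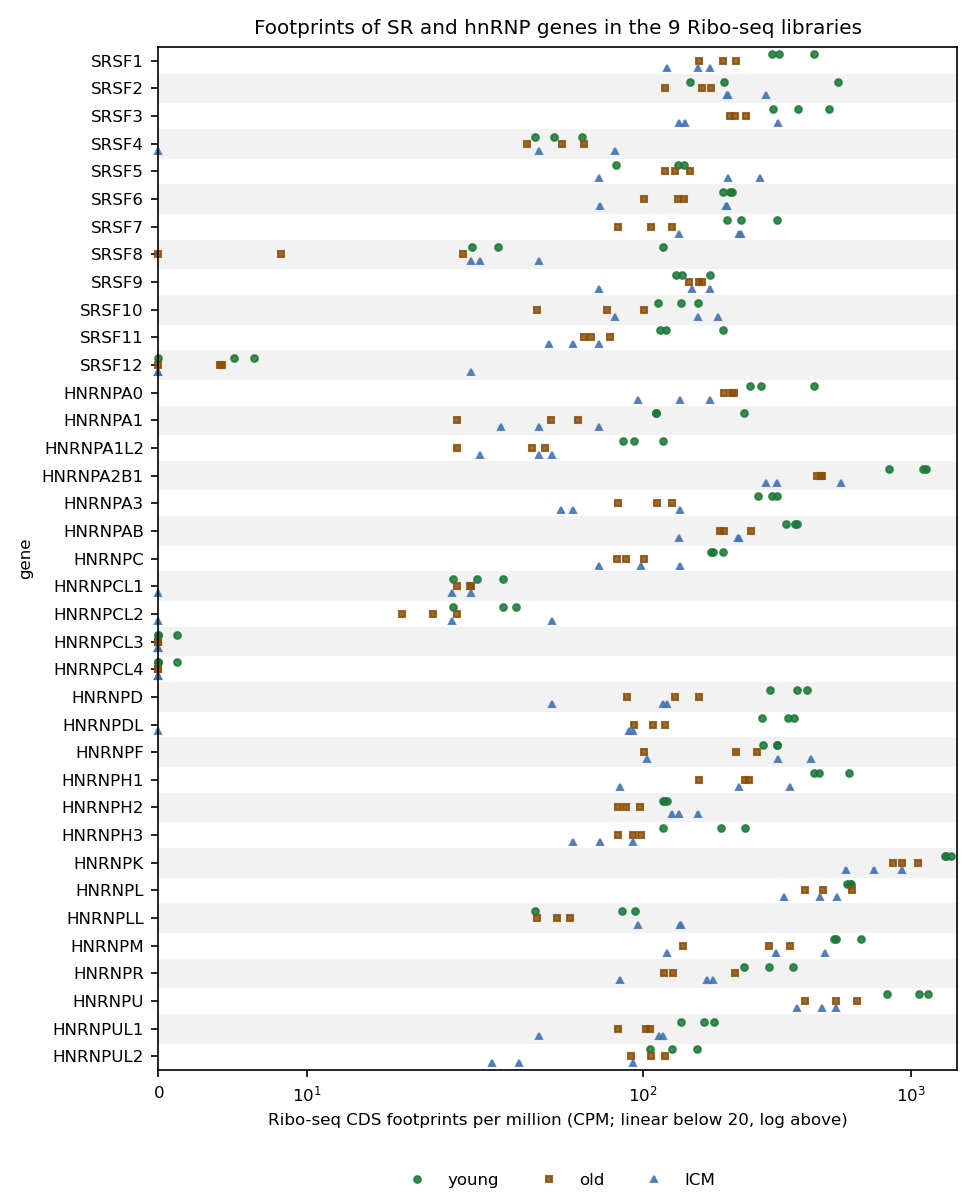
Ribo-seq CDS footprints of each member in each library (CPM, linear below 20 and log above), with green circles for young, brown squares for old and blue triangles for ICM. The 3 ICM libraries scatter more widely than the others, for example from 81.9 to 354.8 CPM for HNRNPH1, and HNRNPDL and SRSF4 each have 1 ICM library at 0.

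The largest footprint falls in ICM cells were those of HNRNPDL, HNRNPA3 and HNRNPD. HNRNPDL had 277, 347 and 365 CPM in young, 109, 121 and 92.4 in old and 88.7, 0 and 91.3 in ICM libraries, from 18, 0 and 4 footprints in the latter. Its log2 change was -2.36 (SE 0.35, adjusted p = 2.79e-06) in ICM and -1.75 (SE 0.23, adjusted p = 1.7e-07) in old cells. HNRNPD had 297, 411 and 375 CPM in young, 86.8, 161 and 131 in old and 118, 123 and 45.7 in ICM libraries, a change of -1.82 (SE 0.30, adjusted p = 1.46e-05) and -1.84 (SE 0.22, adjusted p = 3.42e-08). For both genes all ICM and old libraries lay below all young ones. HNRNPA1 changed by -1.64 (SE 0.47) and -1.20 (SE 0.27), and HNRNPA1L2 by -1.49 (SE 0.49) and -1.18 (SE 0.29).

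HNRNPA3, which shares 93.9% of its stretches of 28 bases with other genes, had a larger log2 change in footprints than in mRNA in ICM cells. That difference did not pass the interaction test (adjusted p = 0.178). Its footprints were 317, 304 and 268 CPM in young, 128, 80.5 and 113 in old and 49.3, 54.6 and 137 in ICM libraries, a change of -2.17 (SE 0.34, adjusted p = 6.84e-06) in ICM. HNRNPA2B1 changed by -1.60 (SE 0.22) and -1.22 (SE 0.18), and HNRNPR by -1.07 (SE 0.28) and -1.30 (SE 0.21, adjusted p = 1.07e-05). HNRNPH3, HNRNPU, HNRNPM, HNRNPH1, HNRNPK, HNRNPAB, HNRNPC, SRSF1, SRSF3 and SRSF11 fell in both comparisons too, between -0.81 (HNRNPAB) and -1.59 (HNRNPH3) in ICM cells. HNRNPA0 (-0.88) and HNRNPUL2 (-1.51) were called lower in ICM and not in old cells. SRSF6, SRSF7, SRSF10, HNRNPUL1 and HNRNPLL were called lower in old and not in ICM cells, which does not show that the comparisons differ.

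Footprints of HNRNPC fell in ICM cells, where its mRNA was not called. They were 198, 182 and 179 CPM in young, 86, 101 and 80 in old and 98.5, 68.2 and 137 in ICM libraries, with no overlap between young and ICM (-0.91, SE 0.31, adjusted p = 0.0292). The difference between footprint and mRNA change, tested as the interaction below, was -0.80 (95% interval -1.44 to -0.17) and did not pass the test (adjusted p = 0.177). HNRNPC shares 84.2% of its stretches of 28 bases and 58.2% of those of 50 bases with other genes. Footprints are shorter than mRNA reads, so this difference is uncertain.

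HNRNPLL was the only one of the 31 members whose footprints were called different between ICM and old cells (edgeR), against 5.79% of all genes called higher, 7.62% called lower and 13.4% called in either direction. DESeq2 called 0, and 2 members in each direction had an unadjusted p under 0.05. HNRNPLL had 39.6, 83.1 and 93.5 CPM in young, 47.6, 40.2 and 53.4 in old and 138, 95.5 and 137 in ICM libraries, and ICM exceeded old by 1.36 (SE 0.36, adjusted p = 0.00833). Every ICM library lay above every other library. The call was lost in DESeq2 (adjusted p = 0.0805), without old replicate 1 (0.0914) and without ICM replicate 1 (0.253). SRSF7 (0.81, adjusted p = 0.0517) and HNRNPUL2 (-1.25, 0.0604) came next. Members with no footprint call in ICM or old cells were SRSF2, SRSF4, SRSF5, SRSF9, HNRNPF, HNRNPH2 and HNRNPL. SRSF5 footprints were at 79.2, 142 and 135 CPM in young and 207, 273 and 68.5 in ICM libraries (0.58, interval -0.01 to 1.17).

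Translational efficiency, here the footprint change relative to the mRNA change, came from a model of both assays with a term for each lysate, as the interaction between assay and group. In ICM against young 1 of 31 members was called higher, against 1.36% of 4618 genes, and in the other comparisons none was called, against 1.43% (old against young) and 0.346% (ICM against old) of all genes called in either direction. At an unadjusted p under 0.05 there were 4, 1 and 2 members in the 3 comparisons, and DESeq2 called 0 in each. The members' median interaction was 0.12 in ICM against young, where that of all genes was 0.06.

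The member called was SRSF2. Its mRNA was 191, 185 and 196 CPM in young and 89.1, 91.8 and 101 in ICM libraries, while its footprints were 535, 150.2 and 199.8 CPM in young and 207, 286 and 206 in ICM libraries, so that the footprints overlapped and the mRNA did not. The interaction was 1.20 (SE 0.33, adjusted p = 0.0454). Young replicate 1, a library of low CDS share, held the highest footprint value of all. The call was lost with RLE scaling, with CDS reads only, in DESeq2 and without young replicate 2, young replicate 3, ICM replicate 1 or ICM replicate 2. It held without young replicate 1 and without ICM replicate 3. After it came HNRNPA3 at -1.0 (interval -1.79 to -0.21), HNRNPUL2 at -0.94 (-1.91 to 0.03), HNRNPC at the value above, and HNRNPF at 0.70 (0.03 to 1.38). HNRNPA3, HNRNPUL2 and HNRNPC share 93.9%, 96.5% and 84.2% of their stretches of 28 bases with other genes. For SRSF2 and HNRNPF the shares are 1.1% and 1.6%. What part such sharing had in these values was not tested. In old cells the interactions lay between -0.35 (HNRNPC) and 0.51 (HNRNPA0).

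**Figure D4:**
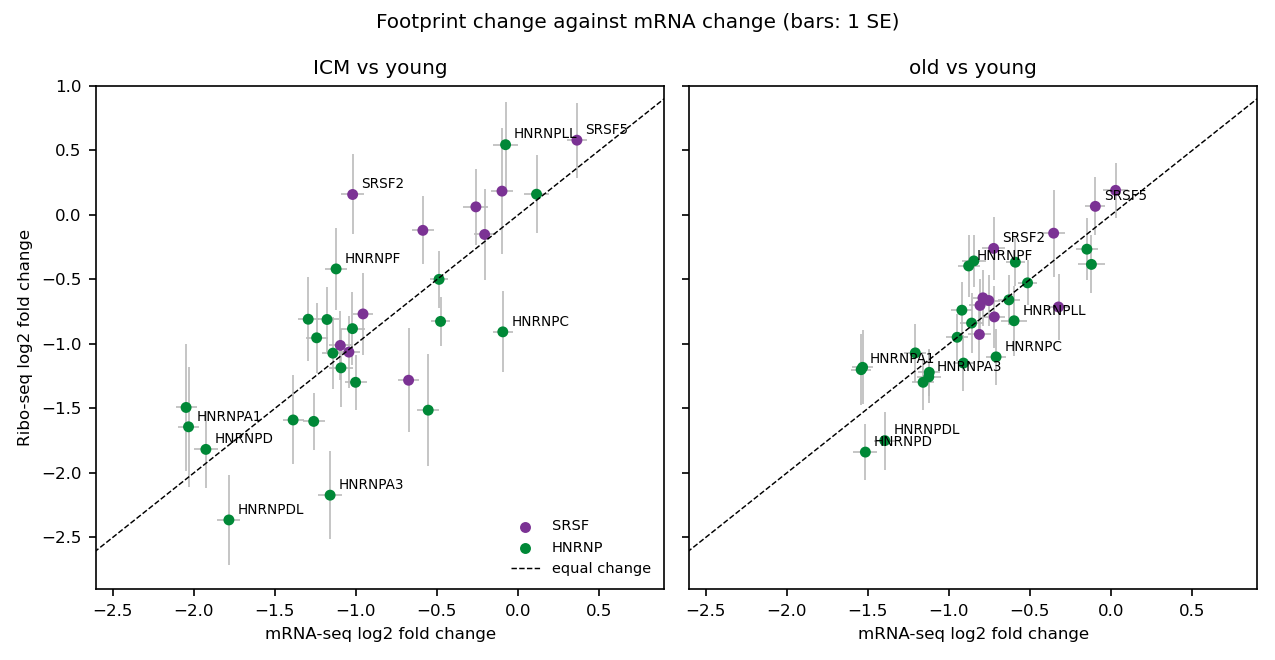
Footprint log2 change against mRNA log2 change for 31 members in ICM (left) and old (right), each against young, with bars of 1 SE and a dashed line of equal change. SRSF points are purple and HNRNP points green. In old cells the points lie near the line, and in ICM cells SRSF2 lies above it and HNRNPA3 and HNRNPC below it.

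Within a library the members also differed in footprints per mRNA. In the deepest young library SRSF1 stood at percentile 95.7 of 4618 genes in CDS footprints over CDS mRNA reads, HNRNPH2 at 95.2 and SRSF3 at 91.1. HNRNPUL1 was at percentile 5.3, HNRNPA1L2 at 7.4, HNRNPC at 8.0, HNRNPA1 at 9.1 and SRSF4 at 12.3. In the deepest old library SRSF1 was at 95.9 and HNRNPC at 3.4, and in the deepest ICM library SRSF1 was at 94.0 and HNRNPC at 5.2. SRSF1, HNRNPA1, HNRNPA1L2 and HNRNPC are among the genes with many shared stretches, and SRSF3 and HNRNPH2 share 37.6% and 31.2% of theirs. Footprints are shorter than mRNA reads, so the ratios of these genes, high or low, are uncertain.

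Reads in the 3′ UTR relative to the CDS were compared as a sign of changes in transcript form. Of 32 members tested, 2 shifted towards the 3′ UTR in ICM against young, SRSF7 and HNRNPDL, against 3.19% of 9729 genes. By edgeR 0 shifted the other way, against 1.28% of genes, but 22 of the 32 lay below 0 (median -0.18, against -0.04 over all genes), and at an unadjusted p under 0.05 there were 3 up and 9 down. In old against young and ICM against old no member was called by edgeR, against 1.9% and 1.81% of all genes, and 2 and 4 had an unadjusted p under 0.05. For SRSF7 the 3′ UTR held 5.69, 8.22 and 9.58% of coding reads in young, 11.3, 10.8 and 11.4% in old and 16.7, 13.3 and 13.8% in ICM libraries, and the ratio to the CDS changed by 1.00 (SE 0.19, adjusted p = 0.00152). For HNRNPDL the shares were 7.58, 8.84 and 9.21% in young, 12.2, 12 and 12.1% in old and 16.7, 11.8 and 12.4% in ICM libraries. The ratio changed by 0.76 (SE 0.16, adjusted p = 0.0039) in ICM and by 0.56 (SE 0.15, adjusted p = 0.0676) in old cells. Young libraries lay below all others for both genes. In counts, HNRNPDL CDS reads went from 1547, 1887 and 1934 in young to 616, 578 and 570 in ICM libraries, and its 3′ UTR reads from 128, 187 and 199 to 125, 79 and 82. Without ICM replicate 1 the HNRNPDL value was 0.56 (adjusted p = 0.0892).

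The tables also have a column headed transcript, apart from the coding regions, whose content the sources used here do not define. It held enough reads to test 5 members (SRSF3, SRSF5, SRSF6, HNRNPA2B1 and HNRNPDL) among 384 genes, an analysis added after the data were seen. Relative to CDS reads it rose in ICM against young for HNRNPA2B1 (1.23, SE 0.37, adjusted p = 0.0114) and HNRNPDL (0.89, SE 0.28, adjusted p = 0.0171), against 15.4% of the 384 genes called higher. For HNRNPDL this column held 2.2, 1.81 and 1.95% of its reads in young, 2.48, 2.32 and 2.32% in old and 2.48, 4.02 and 3.77% in ICM libraries, from 38, 39 and 43 reads in young and 19, 28 and 26 in ICM. For HNRNPA2B1 the reads numbered 6, 24 and 13 in young and 27, 9 and 15 in ICM, and the shares of the groups overlapped. With a minimum mean of 50 counts in both regions 2 members could be tested and edgeR called 0. The HNRNPDL call was lost without young replicate 2, ICM replicate 2 or ICM replicate 3, and 1 member was called without young replicate 1, ICM replicate 1 or ICM replicate 2. SRSF6 had 6.33, 7.36 and 9.54% in young and 5.52, 5.06 and 5.62% in old libraries, which did not overlap and did not pass the test (-0.56, SE 0.25, adjusted p = 0.121).

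**Figure D5:**
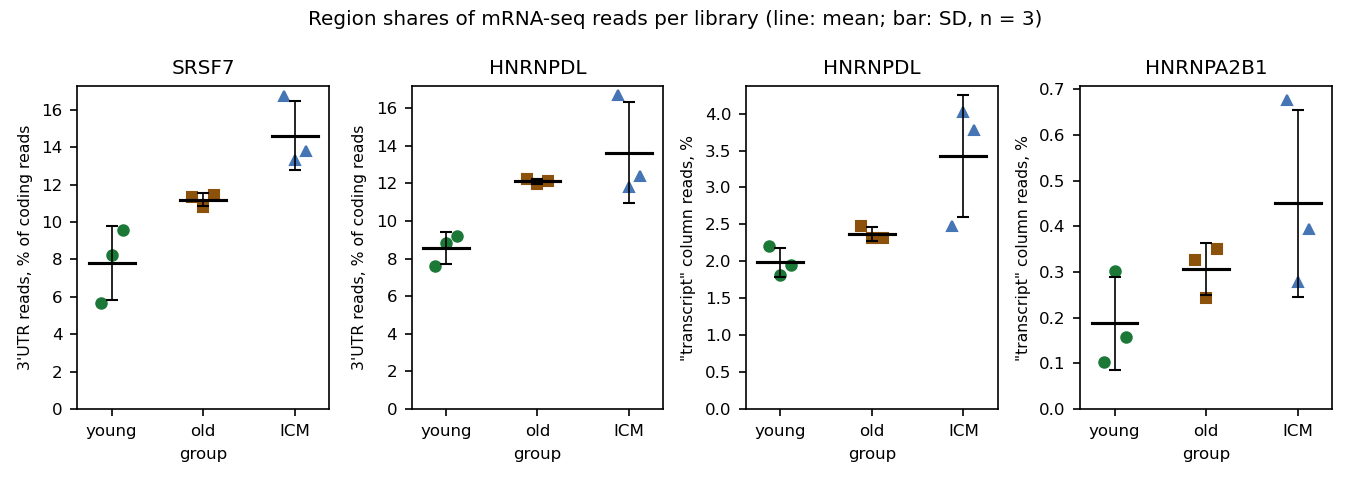
Share of mRNA-seq reads in the 3′ UTR (percent of coding reads, SRSF7 and HNRNPDL) and in the column headed transcript (percent of coding and transcript reads, HNRNPDL and HNRNPA2B1) in each library, with the mean as a line and the SD as a bar (n = 3). Young libraries lie below all old and ICM libraries in the first 3 panels and overlap with them in the last.

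Promoters were looked at because so many members moved together. RefSeq sequences (GRCh38.p14, 250 bases before to 50 after each start) were available for 34 members and 27305 genes. The latter were taken whether or not they were expressed in these cells. The E-box CACGTG, the site of MYC and USF proteins, occurred on either strand in 7 members (20.6%) and 8.8% of all genes. The 7 were HNRNPA3, HNRNPD, HNRNPDL, HNRNPH2, HNRNPH3, HNRNPM and HNRNPUL1. Of these 6 fell in both mRNA-seq comparisons and HNRNPH2 in neither, while 25 of all 37 members fell in both. The letters CCAAT occurred in 21 members (61.8%) and 39.7% of genes, TATAAA in 6 (17.6%) and 14.0%, and CCGGAAG in 5 (14.7%) and 12.2%. TGACGTCA and TTTGGCGC occurred in 0 members, and in 2.2% and 0.8% of genes. None of these motifs contains another. The E-boxes of a member with a large fall, of one with a moderate fall and of the one without a call, which has 2, are shown in capitals:

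HNRNPD: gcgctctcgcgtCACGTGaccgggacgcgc

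HNRNPH3: tgccggtcgaacCACGTGgggccctttccg

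HNRNPH2, first: ccgagagttgctCACGTGaccgagatctca

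HNRNPH2, second: gacgtaggcgctCACGTGattactcgctta

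They lie at chr4:82374001-82374030 (minus strand), chr10:68331631-68331660, chrX:101408168-101408197 and chrX:101408201-101408230 (plus strand). Such a match is a description of the letters and not a binding site.

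The other splicing genes give the surroundings of the family, against the mRNA background given above. All 12 SR-like and SR-related genes fell in both comparisons, led by U2AF1, a subunit of the factor that recognises the 3′ splice site (-1.09 in ICM and -1.0 in old cells). Of the 17 hnRNP-type genes under other symbols 17 fell in ICM and 16 in old cells, among them FUBP1 (-1.69 in ICM) and RBMX (-1.57 in ICM and -1.30 in old). Of 51 core spliceosome genes 40 fell and 3 rose in ICM, and 42 fell and 1 rose in old cells, with SNRPA, a U1 snRNP protein, lowest in both (-1.31 and -1.16). The median of that list was -0.38 in ICM and -0.50 in old cells. Of 8 kinases that phosphorylate SR proteins 3 rose and 2 fell in ICM, where CLK3 rose by 0.91 and PRPF4B fell by 0.91, with a median of 0.16. In old cells 1 rose and 5 fell, with a median of -0.36. Of 14 NMD genes 9 fell and 2 rose in ICM and 6 fell and 3 rose in old cells, with SMG8 and SMG5 among those that rose in both. Of 14 tissue-regulated splicing factors tested 11 fell and 2 rose in each. NOVA1, a splicing factor known from neurons, rose in ICM (0.73) and fell in old cells (-3.62). Its level was low throughout, with means of 3.0 CPM in young, 0.23 in old and 5.1 in ICM libraries.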

How the data were processed

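Poly(A) mRNA-seq and Ribo-seq were analysed from 18 libraries, 3 per group and assay. The deposited tables hold estimated counts per gene symbol and region (5′ UTR, CDS, 3′ UTR, ncRNA, transcript, pseudogene), not scaled to depth, and part of the values are not whole, so that some reads seem to be divided between features. The submitters' processing notes name STAR 2.6.0c, featureCounts, DESeq2 and deepTools and the build GRCh37, and which of these made the tables is not given in the sources used here. The counts were rounded, with 5′ UTR, CDS and 3′ UTR reads summed for mRNA-seq and CDS reads alone for Ribo-seq, after the study's methods.

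All genes were fitted with edgeR 4.0.16 (R 4.3.3, limma 3.58.1; quasi-likelihood test, TMM scaling, expression filter), all 9 libraries of an assay in a fit. The 95% intervals use the degrees of freedom of that test, and p-values were adjusted by Benjamini-Hochberg over all genes, with a threshold of 0.05. Translational efficiency was the interaction of assay and condition with the lysate as block, and region ratios the interaction of region and condition with the library as block. The scripts were tested on simulated counts. DESeq2 1.42.0, RLE scaling, other filters and thresholds, the replicate number as block and leaving out each library were alternatives. Read-depth limits the footprint tests, since the shallowest library held 46239 CDS reads. CPM are relative to the coding reads (mRNA-seq) or CDS reads (Ribo-seq) of the library's tested genes, after TMM scaling. RPKM and the CPM of the pseudogene and ncRNA columns use unscaled library totals.

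The members and lists were chosen with earlier results of these data known. Every member is named with a value, and full statistics go to up to 3 called members with the largest rise and 3 with the largest fall whose replicates do not overlap, in each measure and comparison. For other lists up to 2 genes per direction are named. A gene that this rule would name is not reported here. Some further values were named after they were seen. A planned test of ncRNA reads was replaced by one of the column headed transcript, since the members had no ncRNA reads. LINC and pseudogene columns entered no test.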

Additional observations from a re-analysis of the deposited data

Results flagged for a closer look

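HNRNPUL2-BSCL2, a read-through of HNRNPUL2 into the next gene, had no coding reads and entered no test, but its reads in the ncRNA column of mRNA-seq were higher in all 3 ICM libraries than in all young libraries. They stood at 94.7, 95 and 96.7 CPM of coding reads in ICM libraries (mean 95.5), against 84.1 ± 3.89 in young and 82.3 ± 3.41 in old libraries (SD, n = 3). HNRNPUL2 itself, which shares 96.5% of its coding stretches with it, fell in ICM, with a log2 change of -0.55. The difference in the ncRNA column was not tested.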

How the results depend on the processing

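The sign of the log2 change was checked across alternative runs only in members chosen by the rule for full statistics, and none was reversed. Other values, such as that of SRSF2 in translational efficiency, were not checked in this way. In mRNA-seq the counts of called members moved by less than 1.5 times, except between ICM and old cells. There a log2 change over 0.6 left 3, all higher in ICM, where the main run had 11 higher and 15 lower. Footprint calls were less stable. For ICM against young 12 to 22 members were called when 1 library was left out. For old against young the range was 12 to 22, and DESeq2 called 12. For ICM against old, where 1 was called, DESeq2 and no filter gave 0, RLE scaling and leaving out both libraries of low CDS share gave 2, an adjusted p under 0.15 gave 4, and leaving out 1 library gave 0 to 3. For translational efficiency in ICM against young, where 1 was called, RLE scaling, CDS reads only and DESeq2 gave 0 and leaving out 1 library 0 to 1; without ICM replicate 1 the member called was not SRSF2. In old against young no replicate block gave 1. For 3′ UTR reads in ICM against young leaving out 1 library gave 1 to 2, and in old against young 0 to 1. For the transcript column, an analysis chosen after seeing the data, ICM against young gave 0 with a mean of at least 50 counts and 1 to 2 when 1 library was left out, and old against young gave 1 with no replicate block and 0 to 1 when 1 library was left out. The causes were not tested.

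Replicate numbers are shared by the groups' labels. Deviations from the group mean in same-numbered libraries of different conditions correlated from -0.16 to 0.17 in mRNA-seq and -0.02 to 0.06 in Ribo-seq. The mRNA-seq and Ribo-seq libraries of 1 lysate, which are known pairs, gave -0.04 to 0.05 in the same check. The check therefore cannot show whether same-numbered libraries were paired. With the replicate block 28, 31 and 27 members were called in mRNA-seq for ICM against young, old against young and ICM against old, and 16, 15 and 1 in Ribo-seq.

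Ribo-seq depth limits the footprint and efficiency tests, and the absence of a call there does not show equal levels. The study's results say that data on old cells were made earlier, and any such difference in time cannot be told apart from senescence.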

Other observations

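Processed pseudogenes of the family had columns of their own and entered no comparison. HNRNPA3P1 stood at 124 ± 7.99 CPM of coding reads in young, 51.9 ± 3.74 in old and 56.0 ± 3.30 in ICM libraries (SD, n = 3). HNRNPKP3 stood at 9.58 ± 1.16, 6.69 ± 0.338 and 7.27 ± 0.794. HNRNPA1P33 held less than 1 CPM in every library. HNRNPA3 and HNRNPK share 93.9% and 70.2% of their stretches of 28 bases with other genes, so these columns are not separate evidence.

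The make-up of the family also differed between the states. HNRNPC made up 6.01% of the members' summed mRNA CPM in young, 6.48% in old and 10.3% in ICM cells, while HNRNPA1 made up 3.21%, 1.95% and 1.44%. SRSF5 made up 1.43% in young, 2.35% in old and 3.36% in ICM cells, and SRSF9 2.36%, 4.25% and 3.61%. These are shares of the groups' mean CPM, given as values with no test.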
